A study of Mus musculus with 4 samples.

Results

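Elavl peaks in places where the spans of 2 or more protein-coding genes overlap were collected from HITS-CLIP of mouse cortex and of N2A cells, a mouse neuroblastoma line. A peak was taken when at least 1 nt of it lay in each of 2 or more coding gene spans of the RefSeq annotation of GRCm38. This gave 1840 of 105110 peaks, 1643 of 97775 in cortex (1.68%, 1.60 to 1.76) and 197 of 7335 in N2A (2.69%, 2.34 to 3.08). The cortex list stands for 3 samples, made with a degenerate linker of 25 nt, and its name carries the words for 2 months. The N2A list stands for 1 sample, made with a linker of 7 nt, so linker and source cannot be told apart. The labels name no genotype, treatment, sex or antibody. Each list gives a position, a strand and the authors' p-value per peak, with no value per sample and no read count. Depth and replicate spread are therefore unknown. Intervals in brackets are Wilson 95% intervals, which cover counting error only and count each peak on its own. Several peaks can share a gene pair, so the true spread may be wider. No difference between the lists was tested.

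In HITS-CLIP, ultraviolet light fixes a protein to the RNA it touches, and the RNA pieces recovered with the protein are sequenced with their strand kept. Elavl proteins (HuR and its neuronal relatives) bind U-rich RNA, in introns and near the 3′ ends of messages, and are known for regulating splicing, stability and translation. Where 2 genes overlap on opposite strands, each position of DNA can be copied into 2 different RNAs. The strand of a peak then says from which of them the bound RNA came. Where the genes run the same way, or are read through into each other, strand cannot separate them. The reference used here holds gene spans without exons or UTRs, so a peak is placed in a span and not in an exon or intron.

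The bases under 4 of these peaks could be read, because the peaks lay at least partly in a RefSeq promoter sequence of GRCm38.p6. These were shown because they let the bound strand be seen at 3 overlaps. They are given 5′ to 3′ on the strand of the peak as the stretch of at most 30 bases with the most T, and capitals mark runs of 3 or more T, which are U in the RNA.
Trim17/H2aw, cortex, chr11:58954697-58954726, plus strand: TTTcTTTTctgTTTTTgcgtacTTTTggtt
Trim17/H2aw, N2A, chr11:58954710-58954734, plus strand: TTTgcgtacTTTTggttatcagtgg
Vps13d/Dhrs3, cortex, chr4:144892999-144893028, plus strand: gcTTTTTTgTTTgTTTgTTTTgttaatctt
Med12l/P2ry14, cortex, chr3:59131493-59131522, plus strand: gttcccccactccccTTTgcTTTaTTTTTT
The stretches held 20, 12, 21 and 15 T. The first pair of sequences comes from overlapping peaks of both lists in H2aw, a histone H2A gene of 0.508 kb that lies inside the span of the ubiquitin ligase gene Trim17. The peak fits the strand annotated for H2aw. The Dhrs3 peak (p of 0.00748) fits Dhrs3, a retinal reductase gene, and not the surrounding Vps13d. The Med12l/P2ry14 site (p of 0.0515) lies at the start of P2ry14, a nucleotide receptor gene, but on the opposite strand, which is that of the host gene Med12l.

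The motif TTTTT was found in the bases covered at 3 of these 4 peaks, and its complement AAAAA at none. For comparison, TTTTT occurred in 54 of the 80 peaks of both lists that lay wholly inside a promoter sequence (67.5%), and AAAAA in 4 (5.0%), both read on the strand of the peak. The first 51 bases of all 32851 promoter sequences held TTTTT in 6.67% and AAAAA in 7.09%. Overlapping matches were counted once per stretch.

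Overlaps between coding genes are a small part of the genome, 11.8 Mb or 1.15% of the 1032 Mb covered by coding genes. They held 1.77% (1.69 to 1.86) of the cortex peaks that lie in a coding gene and 2.84% (2.47 to 3.26) of such N2A peaks. The peaks were spread over 516 gene sets with 983 genes. In cortex there were 500 sets, 243 of them with a single peak, and in N2A 119 sets, 76 of them with a single peak. The 10 largest sets held 23.6% of the cortex peaks and 24.4% of the N2A peaks. Most peaks lay in exactly 2 genes (92.0% in cortex, 98.5% in N2A). Only 40 cortex and 8 N2A peaks were partly outside 1 of their genes. Just outside the rule, 44 cortex and 15 N2A peaks in a single gene lay within 50 nt of a second. Genes with predicted names (Gm or Rik) took part in 483 cortex peaks (29.4%) and 9 N2A peaks (4.57%), and without such genes the cortex share falls to 1.27%.

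Peaks in overlaps had lower median p-values than other peaks of their lists, while the share under 0.05 differed little from the list. The median p was 0.00430 in cortex against 0.00958 for peaks in a single coding gene, and 0.00297 in N2A against 0.00578. A p under 0.05 was found for 1322 of 1643 cortex peaks (80.5%, 78.5 to 82.3), against 77.2% of the whole list. In N2A the count was 155 of 197 (78.7%, 72.4 to 83.8), against 79.7%. Of the classes described next, the cortex median p was 0.00123 at tail-to-tail pairs, 0.00449 at opposite-strand nested pairs and 0.00698 in same-strand pairs. Cortex peaks in 3 or more genes had a median of 0.0120. In N2A the order differed, with 0.00360 at tail-to-tail pairs, 3.96e-05 for 13 opposite-strand nested peaks and 0.0247 for 10 same-strand peaks.

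Each gene was first given the strand of most peaks that overlap that gene alone, called its own peaks here. Only 474 of the 983 genes have such a strand. A gene wholly inside another coding gene can have no own peaks, and other genes had none or as many on each strand. Both genes of a peak had one for 385 cortex peaks and 63 N2A peaks. Of these, 294 (76.4%, 71.9 to 80.3) and 44 (69.8%, 57.6 to 79.8) fitted exactly 1 gene. Another 84 and 15 fitted both genes, and 7 and 4 fitted neither. A peak in 2 genes on opposite strands must fit exactly 1 of them. The 76.4% and 69.8% are therefore the shares of opposite-strand pairs, and do not measure how well strand tells the genes apart. Where only some of the genes had a strand, 656 of 796 cortex peaks (82.4%) and 63 of 79 N2A peaks (79.7%) fitted one that did. For 462 and 55 peaks no gene had a strand.

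The RefSeq promoter table gives a strand for 17492 of 21900 coding genes, and this was used as a second source. Across all coding genes with both sources the strands were the same in 6874 of 6973 (98.6%). Among genes of the overlaps they differed in 24 of 394 (6.09%, 4.13 to 8.90), against 75 of 6579 genes outside the overlaps (1.14%, 0.91 to 1.43). Some of these strands rest on 1 or 2 own peaks. With 3 or more own peaks they differed in 10 of 267 genes of the overlaps (3.75%, 2.05 to 6.76). Over all coding genes with 3 or more, the strands were the same in 4475 of 4495 (99.6%). Peak by peak the sources differed more often. Of the peaks compared, the fit was the same by both for 217 of 286 in cortex (75.9%, 70.6 to 80.5) and 27 of 41 in N2A (65.9%, 50.5 to 78.4). With annotated strands, 764 of 1070 cortex peaks (71.4%, 68.6 to 74.0) and 117 of 127 N2A peaks (92.1%, 86.1 to 95.7) fitted exactly 1 gene. No peak with all genes annotated fitted none. In opposite-strand pairs that follows from the geometry, because 1 of the genes must fit. In same-strand pairs it does not, and there 305 of 305 cortex peaks and 10 of 10 N2A peaks lay on the strand of their genes. From here on, a fit given without its source is by annotated strand.

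The pairs were then sorted by how the genes lie. Tail-to-tail genes meet at their 3′ ends, head-to-head genes at their starts, and a nested gene lies wholly within another. Of the peaks in 2 genes with annotated strand, tail-to-tail pairs held 487 of 1067 in cortex (45.6%, 42.7 to 48.6) and 104 of 127 in N2A (81.9%, 74.3 to 87.6). Opposite-strand nested pairs held 213 (20.0%) and 13 (10.2%), and same-strand nested pairs 255 (23.9%) and 5 (3.94%). Tandem pairs on 1 strand held 50 (4.69%) and 5 (3.94%). Head-to-head pairs held 62 cortex peaks (5.81%) and none of the 127 N2A peaks, which allows a share of up to 2.36%. Of peaks in a single coding gene, on its annotated strand, 19.8% in cortex and 80.3% in N2A lay within 5 kb of the gene's end. The lists thus differ in nearness to gene ends outside the overlaps too. Their contrast in arrangement therefore cannot be read as a trait of the overlaps.

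**Figure D1:**
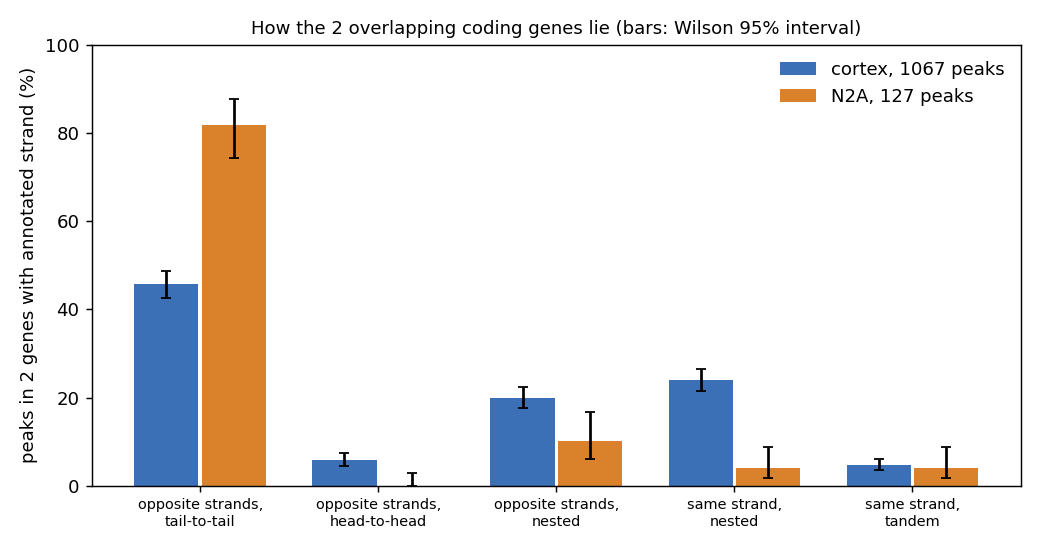
Share of peaks (y axis, percent) by the arrangement of the 2 coding genes (x axis), for 1067 cortex and 127 N2A peaks whose genes both have an annotated strand, with Wilson 95% intervals. Tail-to-tail pairs hold 45.6% in cortex and 81.9% in N2A, and no N2A peak lies in a head-to-head overlap. Of peaks in a single coding gene, 19.8% in cortex and 80.3% in N2A lie within 5 kb of its end.

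The tail-to-tail overlaps were short, with a median of 1.58 kb over 196 pairs in cortex and 1.80 kb over 66 pairs in N2A. The peaks of these pairs lay within 5 kb of the end of the gene they fit in 80.5% of cortex and 91.3% of N2A cases, which the short overlaps largely fix. For peaks in a single coding gene the shares were 19.8% and 80.3%, so the N2A value is nearer to that of its list. A measure that the geometry does not fix is which of the 2 gene ends is nearer. The end of the fitting gene was nearer for 289 of 487 cortex peaks (59.3%, 54.9 to 63.6) and 66 of 104 N2A peaks (63.5%, 53.9 to 72.1). In overlaps of 10 kb or more it was nearer for 117 of 160 (73.1%, 65.8 to 79.4) and 21 of 23 (91.3%, 73.2 to 97.6). These peaks cluster in pairs, with 18 of the cortex peaks at Cdc37l1/Ak3 alone, and the intervals leave this out. Where just 1 gene of a tail-to-tail pair had own peaks on its annotated strand in the same list, the peaks in the overlap fitted that gene in 179 of 231 cortex cases (77.5%) and 38 of 39 N2A cases (97.4%). Over all opposite-strand pairs the counts were 249 of 429 (58.0%) and 38 of 43 (88.4%). These include nested pairs, where only the outer gene can have own peaks, so a peak of the inner gene always counts against. The 67 cortex peaks at Ctnna3/Lrrtm3, all on the strand of the inner gene Lrrtm3, are of this kind. The 2 percentages for cortex are therefore not a like comparison. Where both genes had own peaks, 148 of 225 cortex peaks (65.8%) fitted the gene with more. For 102 of 762 cortex and 73 of 117 N2A peaks neither gene had any.

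The tail-to-tail pairs held several of the 10 lowest p-values of cortex. At Gpm6b/Ofd1, a membrane glycoprotein of neurons and glia against a centriolar protein gene, the plus-strand cortex peak (chromosome X, 166388479 to 166388530) had a p listed as 0. It fits Gpm6b, as do the 3 N2A peaks of that overlap. At Nfkb2/Psd the only peak, a minus-strand peak of cortex (chromosome 19, 46312355 to 46312406), had a p of 4.60e-216. It lies in an overlap of 0.316 kb and fits Psd, an exchange factor for Arf6, and not Nfkb2, a transcription factor of immune signalling. At Ckap5/F2 the cortex peak (p of 1.48e-133) fits the microtubule regulator Ckap5 and not F2, the prothrombin gene. At Slc3a1/Prepl the cortex peak (p of 9.62e-146) fits by annotation only Prepl, a peptidase of the prolyl oligopeptidase family, where Slc3a1 is a transporter subunit known from kidney.

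In N2A the lowest tail-to-tail p was at Pcbp2/Map3k12, an overlap of 2.42 kb between an RNA-binding protein gene and the gene of the axonal kinase DLK. All 3 N2A peaks fit Pcbp2, with p-values of 7.12e-83, 1.29e-06 and 0.000119. In cortex 1 peak fits Pcbp2 (p of 1.79e-184) and 2 fit Map3k12 (p of 1.88e-77 and 0.0198). The cortex peak of Pcbp2 ran from 102498741 to 102498792 and the stronger cortex peak of Map3k12 from 102499691 to 102499742, on chromosome 15. Both RNAs of the overlap were thus represented in cortex and a single one in N2A. Outside the overlap Pcbp2 had 16 own peaks in cortex and 2 in N2A, and Map3k12 had 3 and 0.

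The next N2A tail-to-tail peaks by p fit Nmt2, a myristoyltransferase (Nmt2/Rpp38, p of 3.99e-50), Myef2, a repressor of myelin gene expression (Slc24a5/Myef2, p of 1.00e-37), and Supt16, a histone chaperone subunit (Rpgrip1/Supt16, p of 2.41e-37). Hnrnpab, an RNA-binding protein (Phykpl/Hnrnpab, p of 4.98e-37), Mest (Mest/Copg2, p of 1.99e-35, described further on) and Eif5a, a translation factor (Gps2/Eif5a, p of 1.75e-31), followed. Besides Mest/Copg2, these pairs also had cortex peaks, 3, 8, 2, 2 and 1 in that order, all on the same strand as the N2A peaks.

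The largest N2A set was Abi2/Raph1, 2 regulators of actin at the cell edge whose genes overlap by 10.8 kb. It held 11 N2A and 5 cortex peaks, all on the plus strand, the strand of Abi2 by its 22 own peaks. Raph1 had 20 own peaks, all on its annotated minus strand, yet none in the overlap. The strongest cortex peak, at 60479707 to 60479757 on chromosome 1, had a p of 7.84e-134, and the strongest N2A peak, at 60477802 to 60477853, a p of 4.73e-18. Cd247/Pou2f1 held 5 N2A and 2 cortex peaks, all fitting the transcription factor gene Pou2f1 and none the T cell receptor subunit gene Cd247. Rexo5/Dcun1d3 held 4 and 4, all fitting Dcun1d3, a cullin neddylation factor. Pbrm1/Smim4 held 5 N2A peaks that fit the chromatin remodeller gene Pbrm1, and in cortex 9 that fit Pbrm1 and 1 that fits Smim4.

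Opposite-strand pairs usually showed a single strand. Of the annotated opposite-strand pairs with 2 or more cortex peaks, 108 of 138 (78.3%) had them all on 1 strand, and in N2A it was 26 of 26. The largest set with annotated tail-to-tail strands was Cdc37l1/Ak3, an overlap of 31.6 kb between the genes of an Hsp90 co-chaperone relative and of a mitochondrial adenylate kinase. It had 17 cortex peaks for Cdc37l1 and 1 for Ak3, and 3 N2A peaks for Cdc37l1. At Arhgef33/Sos1 all 14 cortex peaks fit Sos1, the Ras activator. At Oprm1/Ipcef1 all 13 fit Ipcef1 and none the mu opioid receptor gene Oprm1, although Oprm1 had 16 own peaks on its strand outside the overlap.

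Other pairs carried peaks on both strands. At Ttc19/Ncor1, 6 cortex peaks fit Ttc19, a mitochondrial assembly factor, and 5 fit Ncor1, a transcriptional corepressor. At Snapc3/Psip1, 6 cortex peaks lay on the plus strand of Snapc3, a subunit of a snRNA transcription complex. Another 14 cortex peaks and 1 N2A peak lay on the minus strand, that of Psip1, a chromatin reader, by its own peaks. At Cog5/Hbp1, 3 fit Cog5 and 5 fit Hbp1, and at Echdc1/Rnf146, 2 cortex peaks fit Echdc1 and 4 fit the ubiquitin ligase gene Rnf146. By own peaks both genes of the latter pair were on the minus strand (2 for Echdc1, 4 for Rnf146), so that the 4 peaks fitted both genes and the other 2 neither. Bace1/Rnf214 had 4 cortex peaks on the plus strand, that of the beta-secretase gene Bace1 by its own peaks, and 2 on the strand of Rnf214.

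**Figure D2:**
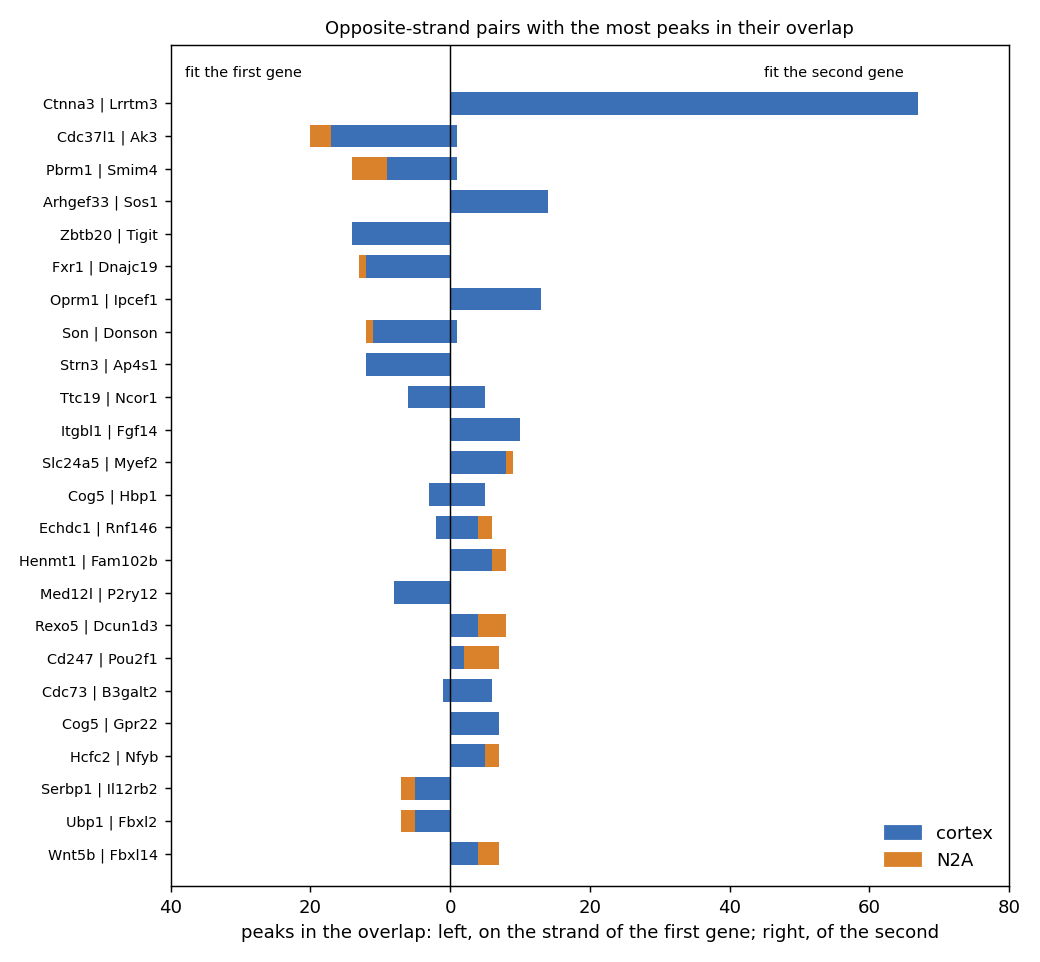
Number of peaks (x axis) in the overlap of the 24 opposite-strand pairs with the most peaks, with annotated strands, in cortex and N2A (stacked colours). Bars to the left count peaks on the strand of the first-named gene and bars to the right those of the second. Ctnna3/Lrrtm3 has all 67 on the side of Lrrtm3, and Ttc19/Ncor1 is divided 6 to 5.

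Peaks on opposite strands at nested pairs fitted the inner gene in 155 of 213 cortex cases (72.8%, 66.4 to 78.3) and in 12 of 13 N2A cases. A single pair carried 67 of the cortex peaks, and without Ctnna3/Lrrtm3 the count was 88 of 146 (60.3%, 52.2 to 67.8). Lrrtm3 encodes a synaptic adhesion protein and lies against the strand of the alpha-catenin gene Ctnna3, over 162 kb of its 1574 kb. All 67 peaks there were in cortex and on the minus strand, that of Lrrtm3, with a lowest p of 2.44e-25. Outside Lrrtm3, Ctnna3 had 8 own peaks on the minus strand, 0.586 to 20.0 kb past the annotated end of Lrrtm3, and 2 on its annotated plus strand. By own peaks the 67 therefore fitted Ctnna3, and the 2 sources gave different genes. The related Lrrtm1 lies in Ctnna2, and at Ctnna2/Lrrtm1, 3 cortex peaks fit Lrrtm1 (p of 3.79e-05, 0.0130 and 0.0537) and 2 fit Ctnna2 (p of 2.01e-06 and 0.0592). Lrrtm2 lies in Ctnna1, and its 8 cortex peaks were all on the minus strand, with a lowest p of 1.40e-40. Neither gene of that pair has a strand here, so no fit could be stated.

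Other inner genes also took the peaks. At Cog5/Gpr22 all 7 cortex peaks fit the orphan receptor gene Gpr22, while Cog5, a Golgi complex subunit, had 16 own peaks on the other strand. At Cdc73/B3galt2, 6 cortex peaks fit the galactosyltransferase gene B3galt2 and 1 fits Cdc73, whose own peaks were 29 on its strand and 2 against it. At Wnt5b/Fbxl14, 4 cortex and 3 N2A peaks fit the F-box gene Fbxl14 by annotation. By its single own peak, on the plus strand, the Wnt ligand gene Wnt5b was the gene that fits, so the sources differed. The host took the peaks at Med12l/P2ry12, where all 8 cortex peaks fit Med12l, a Mediator subunit, and none P2ry12, a receptor that marks microglia. The head-to-head peaks of cortex included 12 at Strn3/Ap4s1, all of which fit Strn3, a phosphatase scaffold.

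A list of 17 pairs known for lying within or against each other was also read. It was written from textbook knowledge, with earlier results of these data known. Their 32 genes were all in the reference, 15 pairs overlapped there, and 8 had a peak in the overlap. The inner gene of Herc3/Nap1l5 is an imprinted retrogene of the nucleosome assembly family. Its minus-strand cortex peak (chromosome 6, 58906011 to 58906062) had a p listed as 0 and fits Nap1l5, as do the 2 N2A peaks (p of 8.31e-06 and 0.0800). Herc3 had 20 own peaks, all on the plus strand. At Syn3/Timp3, 6 cortex peaks fit the protease inhibitor gene Timp3 and 1 lay on the minus strand, that of the synapsin gene Syn3 by its own peaks. At Syn2/Timp4 the single peak (p of 0.0374) fits Syn2. Commd1/Zrsr1 had 1 cortex peak, on the strand of the imprinted retrogene Zrsr1. Nf1/Omg, with a myelin glycoprotein gene inside the neurofibromin gene, had 1 cortex peak on the minus strand (p of 1.43e-60), against the annotated strand of Nf1. Thra/Nr1d1, the thyroid receptor gene against the clock repressor gene Rev-erb alpha, had 2 cortex peaks on the plus strand and 1 that fits Nr1d1. Another peak lay where Evi2b and the model Evi2 overlap Nf1. The overlaps of Timp1, Nnat, Mcts2, Evi2a, Slc18a3, Tsc2 and Fgf2 with their partners held no peak. Inpp5f, listed with no partner, was in none of the peaks.

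Mest/Copg2 is the 8th pair with peaks, an imprinted hydrolase gene that meets a coatomer subunit gene tail to tail over 0.913 kb. It held 3 cortex peaks (p of 6.80e-09, 0.00160 and 0.00484) and 3 N2A peaks (p of 1.99e-35, 0.00138 and 0.0705), all on the plus strand annotated for Mest. The strongest N2A peak lay at 30747684 to 30747734 on chromosome 6, and a cortex peak at 30747682 to 30747733. By own peaks these 6 fitted neither gene. Copg2, annotated on the minus strand, had 9 cortex own peaks on the plus strand and 10 on the minus strand. The 9 began 0.309 kb past the annotated end of Mest and reached 60.3 kb, and 5 of them were within 10 kb. Mest itself had 5 cortex peaks on the minus strand, 2.95 to 4.42 kb past the annotated end of Copg2.

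Peaks on the strand of the partner past its annotated end were found at other pairs too. All 14 own peaks of Tigit, a receptor of T cells annotated on the minus strand, were on the plus strand of its neighbour Zbtb20, a transcription factor of hippocampal and glial development. They lay 1.28 to 8.15 kb past the annotated end of Zbtb20, next to 14 peaks in the overlap Zbtb20/Tigit on the same strand, which by own peaks fitted both genes. All 11 own peaks of Itgbl1 were on the strand of Fgf14, 0.0335 to 8.55 kb past its end. Orc3, a replication factor gene, had 12 on the strand of Akirin2 and 3 on its own. Mfsd4a had 9 on the strand of Elk4 and 3 on its own. The cytokine receptor gene Il12rb2 had 5 own peaks, all on the strand of the mRNA-binding protein gene Serbp1.

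Over the 206 annotated tail-to-tail pairs with a peak in the overlap, 38 had peaks of this kind, 111 in all, 108 of them in cortex and 3 in N2A. They compare with 2960 own peaks on the annotated strand, summed over both genes of all 206 pairs. The part of each gene outside the overlap begins where its partner ends, so the peaks must lie past the end of the partner. Their distance is free, and 93 of the 111 (83.8%) lay within 10 kb of that end. Only 41 gene sides held such a peak, and 15.8% of their pooled length outside the overlap lies within that distance. The pooled length leans on long genes, such as Itgbl1 with 314.5 kb, so the 2 percentages are not a like comparison. Of the 111, 7 (6.31%) touched an annotated gene that is not protein-coding, as did 53 of the 1643 cortex peaks in overlaps (3.23%) and 0 of the 197 in N2A. Which transcripts the 111 peaks came from was not tested. The 24 genes whose sources gave different strands had 1 to 14 own peaks on the other strand, and 14 of them had fewer than 3 own peaks.

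**Figure D3:**
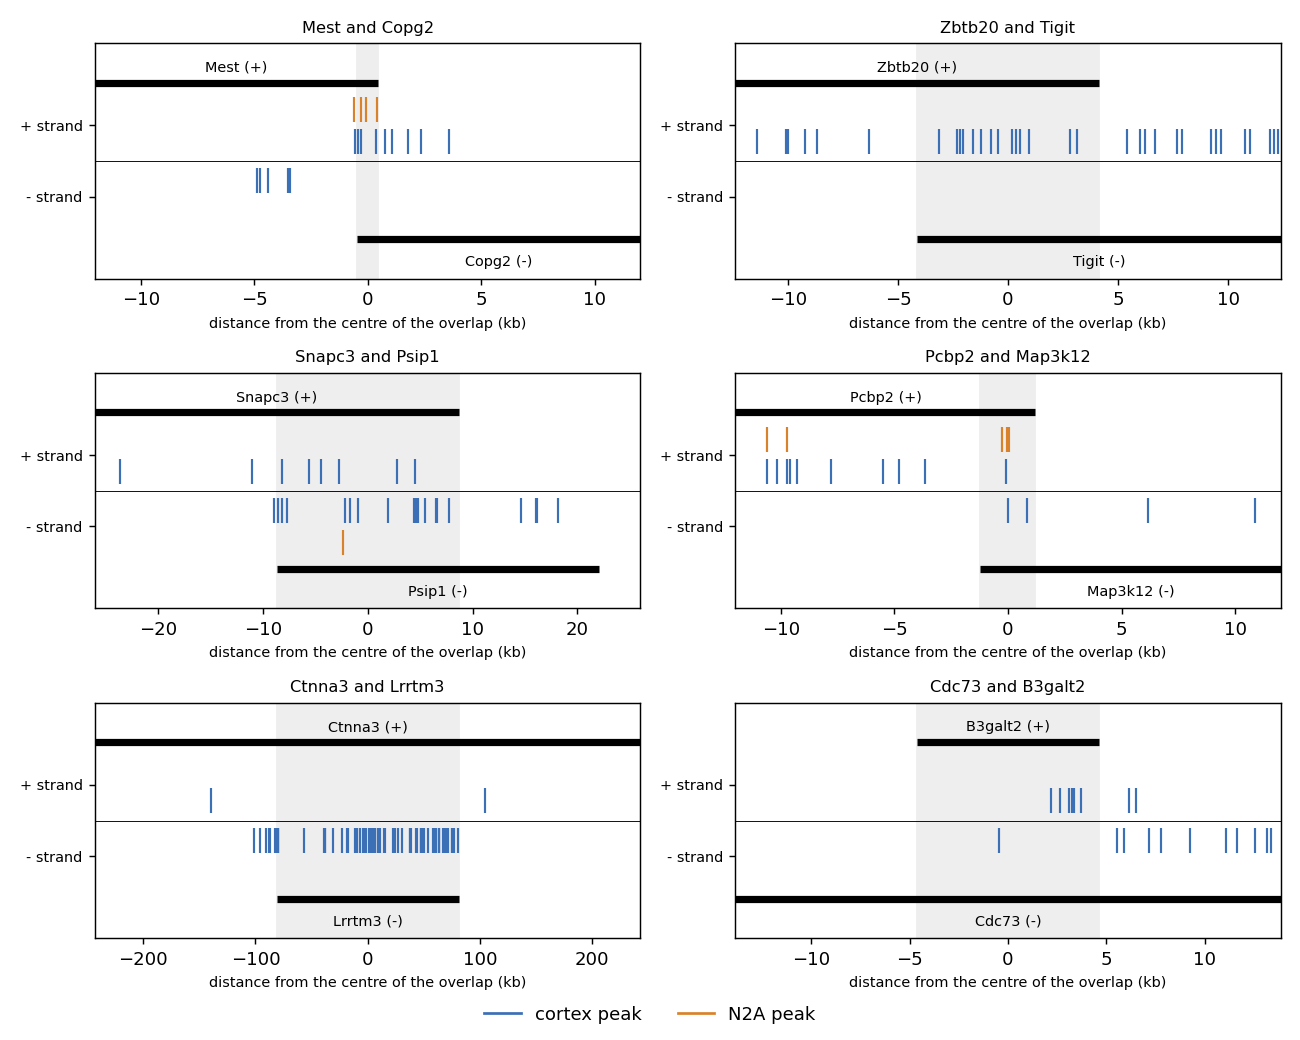
Peaks at 6 overlaps, with distance from the centre of the overlap in kb (x axis) and plus-strand peaks above, minus-strand peaks below the line (cortex blue, N2A orange). Black bars are gene spans and grey marks the overlap. Strands are annotated, except that of Psip1, which is from its own peaks. Plus-strand peaks run on past the annotated ends of Mest and Zbtb20, 2 strands carry peaks at Snapc3/Psip1 and Pcbp2/Map3k12, and minus-strand peaks fill Lrrtm3 within Ctnna3.

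Same-strand overlaps cannot be assigned by strand, and several are read-through or alternative models of 1 locus. The sets with Iqschfp, Gm20498, Gm52229, Snurf or Gm21992 held 186 of the 255 same-strand nested peaks of cortex. Iqschfp/Schip1, a fusion model with the gene of an ankyrin partner at axon initial segments, had 50 cortex peaks and 1 N2A peak. Gm20498 spans Synj2bp and Cox16 and shared 19 and 46 cortex peaks with them. Snrpn/Snurf, an imprinted locus whose single transcript encodes both proteins, had 23 cortex peaks, all on the minus strand, and 0 in N2A. Gm21992, which joins the splicing regulator genes Rbm14 and Rbm4, shared 14 cortex peaks with Rbm4 and 4 with Rbm14. Slc5a3/Mrps6, where an inositol transporter gene overlaps a mitochondrial ribosomal protein gene in tandem, had 17 cortex peaks and 1 N2A peak. At Npcd/Cbx6 the strand of Npcd is not known here, so the pair has no arrangement. It had 9 cortex and 8 N2A peaks, all on the minus strand annotated for the Polycomb gene Cbx6. Its strongest peaks overlapped, at 79824631 to 79824682 in cortex (p of 8.44e-136) and at 79824612 to 79824663 in N2A (p of 5.70e-155) on chromosome 15. The latter was the lowest p of any overlap peak in N2A.

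Long predicted genes inside neuronal genes gave further large sets in cortex. Csmd1/C030002A05Rik had 70 peaks, Nrg3/Gm31606 44, Lsamp/Gm52229 30 and Kcnb2/Gm51415 15, with 0 in N2A for each. All of them lay on the strand of most own peaks of the larger gene, which had 205 of 206 in Csmd1, 412 of 412 in Nrg3, 499 of 499 in Lsamp and 56 of 56 in Kcnb2. These own peaks were all in cortex and 0 in N2A, so the lack of N2A peaks is not particular to the overlaps.

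Peaks in 3 or more genes were nearly all at the clustered protocadherins, a group of adhesion molecules. In the Pcdha and Pcdhg families, variable exons are joined to shared constant exons. Of 132 such cortex peaks, 129 lay in Pcdha or Pcdhg genes or in the models that span them, 127 on the plus strand and 2 on the minus strand, and all 3 N2A peaks did too. A single peak was counted in up to 24 genes. Peaks with a Pcdhg gene numbered 34 in cortex (lowest p of 1.10e-212) and 1 in N2A (p of 6.17e-20). Peaks with a Pcdha gene numbered 49 (lowest p of 5.79e-25) and 2. Others of the 129 had no gene of either family, such as 18 in the models Gm37013, Gm38666 and Gm38667 alone. No peak lay in a single gene of either family, which their overlapping spans largely fix. The other families listed with them, Ugt1a and Gnas, had no overlap peak in either list.

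Of the 119 gene sets seen in N2A, 103 (86.6%) were also seen in cortex, 20.6% of the 500 cortex sets. The cortex list is the longer, with 97775 peaks against 7335. No such share over all genes is given, so the 86.6% cannot be read as a trait of the overlaps. Of the N2A peaks, 82 of 197 (41.6%, 35.0 to 48.6) overlapped a cortex peak of the same class on the same strand by at least 1 nt. For all N2A peaks the share that overlapped a cortex peak was 41.8%. For N2A peaks in a single coding gene, compared with cortex peaks in a single coding gene, it was 42.5%. In 97 shared sets with a clear majority strand in each list, the strand was the same in 92, and in 59 of 62 annotated opposite-strand pairs. Sets with a different majority included Exosc9/Ccna2, Tesk2/Toe1, Thyn1/Vps26b and Pcbp2/Map3k12, with 2 to 6 peaks each. At Exosc9/Ccna2, an exosome subunit gene against the cyclin A2 gene, the strongest N2A peak (p of 2.96e-23) was on the minus strand and the cortex peak (p of 0.000294) on the plus strand. A further N2A peak (p of 0.0276) lay on the plus strand over the cortex peak. With so few peaks a pair these are values only.

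Marker genes were also looked up. All 6 neuron markers (Slc17a7, Camk2a, Rbfox3, Gad1, Gad2 and Snap25) had a cortex peak and 1 of them an N2A peak. Of 6 genes of the sympathoadrenal lineage, 2 had a cortex peak and 3 an N2A peak. Of 6 markers of liver, pancreas, heart, skin, T cells and red cells, the counts were 1 and 0. The cortex list holds 97775 peaks and the N2A list 7335, and no share over all genes is given beside these counts. They therefore cannot check the labels. Expression was not measured, so whether a gene without peaks in an overlap was transcribed there was not tested.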

How the data were processed

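Per the labels, Elavl HITS-CLIP libraries came from 3 cortex samples and 1 N2A sample. The submitters' processing notes name Novoalign, without a version, and the build hg19. Neither the peak caller nor any adjustment of the p-value was stated in the labels or files. The authors deposited 1 list of peaks for each source, with a p-value per peak and no counts, so depth is unknown. Chromosome names are those of mouse, and strands of peaks and of GRCm38.p6 genes were the same in 98.6% of genes, so coordinates were read as GRCm38. They are printed as deposited.

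Peaks were assigned with Python 3.11.15, pandas 2.3.3 and numpy 2.4.6, and intervals came from scipy 1.17.1. The overlap rule (1 nt), the strand rule and the annotated strand from the RefSeq promoter table are described with the results. The code of the assignment was run on simulated peaks that lay inside a source gene and carried its strand. These held no peaks past a gene end or against the gene's strand, so they checked the code only. No test was run, because each source has 1 list. Alternatives changed the overlap rule, the p limit, the gene set, the start coordinate, the strand source, the window and the peak overlap. The gene sets and lists were chosen with earlier results of these data known. Pairs were named by rank of their number of peaks or of their p, by peaks in both lists, on both strands or on neither, and from 2 written lists. The pairs beyond these, among them the Lrrtm1 and Lrrtm2 pairs, Cog5/Gpr22, Cdc73/B3galt2, Med12l/P2ry12, Oprm1/Ipcef1, Strn3/Ap4s1 and the genes whose strand sources differed, were chosen after their values were seen. The result for 1 gene pair is not reported here.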

Additional observations from a re-analysis of the deposited data

How the results depend on the processing

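The shares kept within their 95% intervals when at least 50% of the peak had to lie in each gene, or only peaks with p under 0.05, or starts counted from 0 were used. Without predicted genes the cortex share of the list moved from 1.68% to 1.27%. With annotated strands, peaks fitting exactly 1 gene, and likewise opposite-strand pairs, made up 71.4% in place of 76.4% (cortex) and 92.1% in place of 69.8% (N2A). The cortex share within 5 kb of the gene end was then 61.3% in place of 69.4%. With at least 3 own peaks, 90% of them on 1 strand, the N2A shares were 93.1%, 93.1% (27 of 29) and, for the gene end, 100% (27 of 27). With strands from N2A alone 1 peak was left, so that 100% for all 3 is 1 of 1 and says nothing of stability. Windows of 2 and 10 kb gave 54.1% and 79.3% in cortex and 77.3% and 100% in N2A, against 69.4% and 97.7% at 5 kb. Of peaks in a single coding gene, 19.7% in cortex and 80.0% in N2A lay within 5 kb of its end by own-peak strands. With annotated strands these shares were 19.8% and 80.3%. Of 91 gene pairs with 5 or more peaks, 20 moved by more than 1.5 times with p under 0.05. No paired analysis was possible because each source has 1 list without values per sample, and for the same reason no replicate could be left out. Without read counts, an overlap with no peak may only be too shallow to show one.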
